A study of Homo sapiens with 6 samples.

Results

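The human mitochondrial genome holds 37 genes, and all of them were taken here as the rows of the deposited gene table that lie on chromosome MT. They are 13 protein-coding, 2 rRNA and 22 tRNA genes among 58735 genes in all. RNA was sequenced from MDA-MB-231 cells, an established line derived from a human triple-negative breast cancer. The 3 libraries labelled PM2.5 (fine airborne particulate matter) were set against 3 libraries labelled Control, with RNA taken after 48 h. The labels call the libraries of a group biological replicates but do not say how separate the cultures were, so the p-values measure the spread between these libraries. The sources used here give no dose, vehicle or batch. All of the values come from this 1 cell line, and the labels name no allele or transgene in either group.

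Mitochondrial DNA is read as long RNAs that cover almost a whole strand, and these are cut at the tRNAs that lie between most genes. The messenger RNAs encode core subunits of respiratory complexes I, III and IV and of ATP synthase, while the rRNAs build the ribosome that translates them. Every other protein of this system, polymerase and ribosomal proteins included, comes from nuclear genes. Poly(A) tails are added after cutting, and for several messages the tail completes a stop codon that the gene encodes only in part.

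Total counts per library ran from 31846136 to 34691009. Levels are in CPM, a gene's count over its library's TMM-scaled total. Where a gene had no count, 3 counts over the unscaled total of a library, 0.0865 to 0.0942 CPM without TMM factors, bound its level for counting error only. Of the line's mesenchymal markers VIM averaged 2681 and CD44 1544 CPM in PM2.5 libraries, against 2289 and 1524 CPM in Control libraries. SPARC averaged only 19.3 CPM in PM2.5 and 4.05 CPM in Control libraries. ESR1 had no count in any library, while ERBB2 averaged 43.1 CPM in PM2.5 and 64.9 CPM in Control libraries. The luminal marker KRT19 averaged 1198 CPM in PM2.5 and 994 CPM in Control libraries, but FOXA1 only 0.235 and 0.198 CPM. The endothelial marker PECAM1 averaged 55.1 CPM in PM2.5 and 43.7 CPM in Control libraries, but CDH5 only 0.0388 and 0 CPM. The leukocyte markers PTPRC and CD3E had no count in any library, while CD14 averaged 3.08 CPM in PM2.5 and 1.77 CPM in Control libraries. HMOX1, a gene known to be induced by particulate matter, averaged 51.3 CPM in PM2.5 and 812 CPM in Control libraries, and CYP1A1, another such gene, averaged 2.73 CPM in PM2.5 and 6.28 CPM in Control libraries. Both run against what is known of particulate exposure, and whether the group labels were exchanged was not tested. An exchange would turn the sign of every change given here. Directions are those of the libraries as labelled.

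Some of the genes overlap, which can bear on how their reads were counted. The open reading frames of MT-ATP8 and MT-ATP6, both subunits of ATP synthase, share 46 bases, shown here in capitals with 10 bases on either side (chrMT:8517-8582, GRCh38, plus strand).
MT-ATP8/MT-ATP6: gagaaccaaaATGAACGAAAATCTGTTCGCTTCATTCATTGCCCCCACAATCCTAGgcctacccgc
MT-ND4L and MT-ND4, both subunits of complex I, share 7 bases (chrMT:10750-10776, plus strand), again in capitals.
MT-ND4L/MT-ND4: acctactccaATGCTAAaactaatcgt
The last 15 bases of 4 genes follow, with the encoded stop letters in capitals. They are shown because MT-CO1 and MT-ND6 had the most negative changes of all members and MT-ND1 and MT-ND2 the least negative among messages.
MT-CO1: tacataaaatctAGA
MT-ND6: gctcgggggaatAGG
MT-ND1: tccccctcaaaccTA
MT-ND2: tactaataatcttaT
These ends lie at chrMT:7431-7445 (plus), chrMT:14149-14163 (minus), chrMT:4248-4262 (plus) and chrMT:5497-5511 (plus). All sequences are those of GENCODE release 29 transcripts on GRCh38, where all 37 members matched by identifier, position and strand.

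Of the 37 members 16 had enough counts to be tested: the 13 protein-coding genes, both rRNAs and the tRNA gene MT-TP. Each protein-coding gene is counted as a message here, although MT-ND4L and MT-ND4 share a message, as do MT-ATP8 and MT-ATP6. In PM2.5 libraries 7 messages fell and 1 rRNA rose at an adjusted p under 0.05 (edgeR, quasi-likelihood, Benjamini-Hochberg over 14975 tested genes). Over all tested genes 15.8% were lower and 16.1% higher by the same rule, 31.9% in all. The messages had a median log2 change of -0.38, and 12 of 13 estimates lay below 0, beside a median of -0.01 over all genes. For 9 of the 13 messages every PM2.5 library lay below every Control library, which held for 22.9% of all genes tested, with 44.3% standing apart in either direction. Without PM2.5 replicate 1 the calls were 4 lower and 0 higher. CPM is a share of each library, so less mitochondrial RNA per cell and more nuclear RNA per cell cannot be told apart, nor can fewer cells of a type and less RNA per cell.

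Messages and rRNAs moved apart. The 13 messages took 1.70%, 1.69% and 1.86% of all counts in PM2.5 replicates 1 to 3, against 2.16%, 2.27% and 2.68% in Control replicates 1 to 3. Their mean share was 1.75% ± 0.098 in PM2.5 and 2.37% ± 0.276 in Control libraries (SD, n = 3 each), and the groups did not overlap. The 2 rRNAs took 1.04%, 1.09% and 0.817% of counts in PM2.5 libraries and 0.887%, 0.872% and 0.776% in Control libraries, and here the groups overlapped. Replicate 3 had the lowest rRNA share and the highest message share of both groups. Counts of rRNA per count of message were 0.610, 0.644 and 0.439 in PM2.5 libraries, against 0.410, 0.384 and 0.289 in Control libraries, with no overlap. Beside these ratios, snoRNAs took 0.00142% to 0.00160% of counts in PM2.5 and 0.000892% to 0.00101% in Control libraries, and the signal recognition particle RNA RN7SL2 had 2711, 3539 and 786 counts in PM2.5 and 928, 2153 and 3409 counts in Control libraries. Histone genes, whose main messages also lack a poly(A) tail, ran the other way, with 0.00789% to 0.00822% of counts in PM2.5 and 0.0145% to 0.0183% in Control libraries. The 3 tested nuclear RNAs of the list without a poly(A) tail did not pass the test (median log2 change 0.08). The part of RNA selection in these ratios was not tested.

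**Figure D1:**
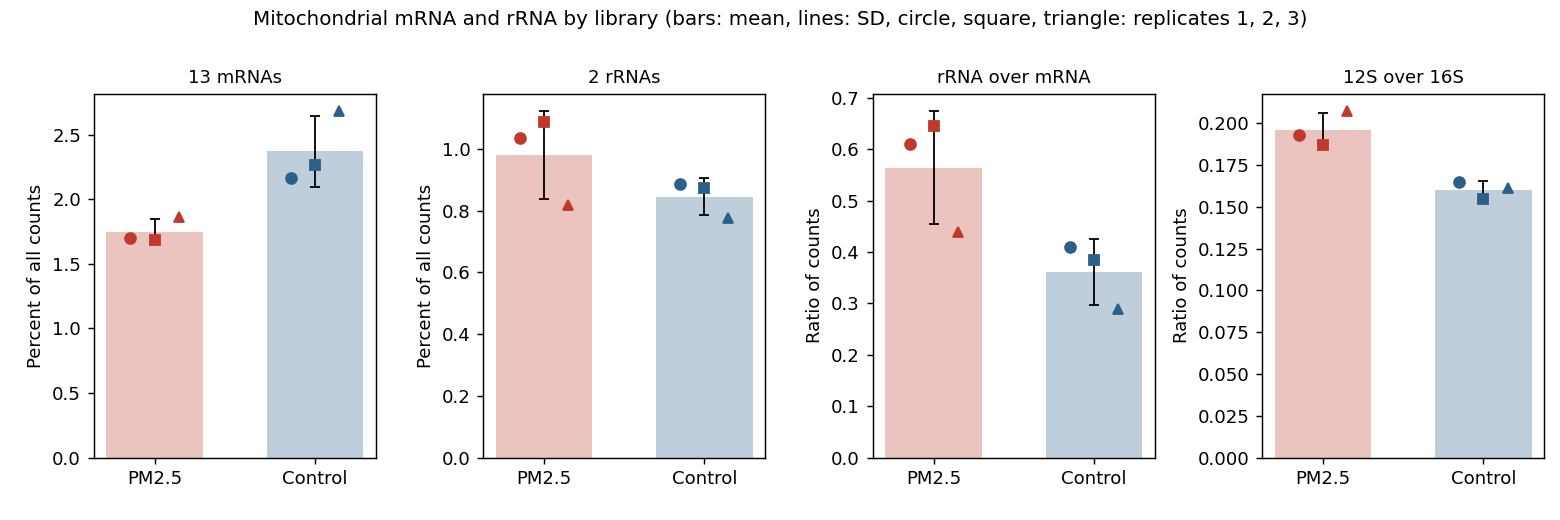
Percent of all counts taken by the 13 messages and by the 2 rRNAs, and the count ratios of rRNA to message and of MT-RNR1 to MT-RNR2 (drawn as 12S over 16S), in PM2.5 libraries left of Control libraries. Bars are means, lines are SD and symbols are replicates, and the message share lies at 1.69% to 1.86% in PM2.5 libraries, below the 2.16% to 2.68% of Control libraries.

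**Figure D2:**
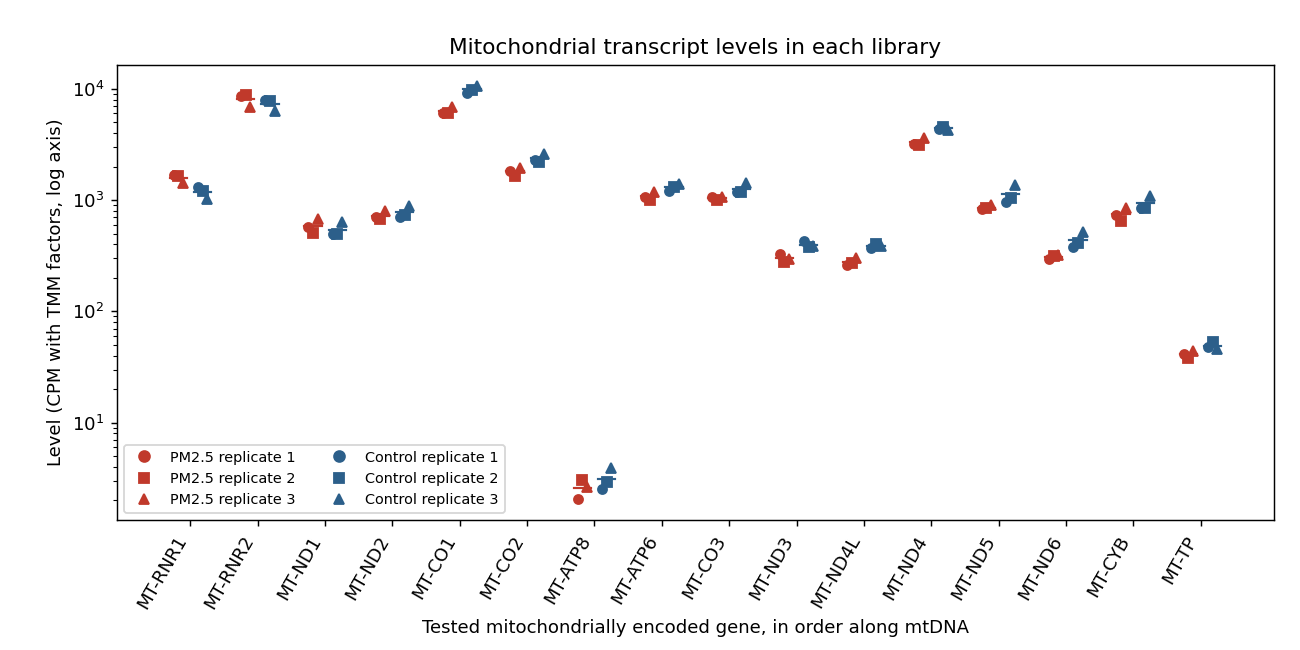
Levels of the 16 tested mitochondrially encoded genes in each library, as CPM on a log axis, with PM2.5 libraries left of Control libraries. MT-CO1 lies at 6007 to 6810 CPM in PM2.5 libraries, below the 9230 to 10670 CPM of Control libraries.

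MT-RNR1, the rRNA of the small mitochondrial ribosomal subunit (chrMT:648-1601, plus strand), was the only member called higher. It had 1668, 1662 and 1419 CPM in PM2.5 libraries, against 1307, 1207 and 1029 CPM in Control libraries. Every PM2.5 library lay above every Control library, as for 21.4% of all genes, and the log2 change was 0.42 ± 0.11 (SE, edgeR adjusted p = 0.00985). That call was lost without PM2.5 replicate 1 (edgeR adjusted p = 0.0684). MT-RNR2, the large-subunit rRNA (chrMT:1671-3229, plus strand), had 8644, 8877 and 6840 CPM in PM2.5 and 7917, 7802 and 6381 CPM in Control libraries. Its libraries overlapped and it did not pass the test (log2 change 0.14 ± 0.13, edgeR adjusted p = 0.444). The count of MT-RNR1 per count of MT-RNR2 was 0.193, 0.187 and 0.207 in PM2.5 libraries and 0.165, 0.155 and 0.161 in Control libraries, without overlap.

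Complex I, which passes electrons from NADH to ubiquinone, has 7 mitochondrially encoded subunits, and 5 of their messages fell. MT-ND6 (chrMT:14149-14673), the sole message encoded on the minus strand, had 294, 317 and 318 CPM in PM2.5 libraries, against 377, 411 and 519 CPM in Control libraries. The groups did not overlap, and the log2 change was -0.49 ± 0.11 (SE, edgeR adjusted p = 0.00365). The strand setting of the counting is unknown, so reads of MT-ND6 and of RNA from the opposite strand cannot be told apart.

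The MT-ND4L and MT-ND4 frames lie on 1 shared message. MT-ND4L had 262, 273 and 303 CPM in PM2.5 libraries and 372, 403 and 384 CPM in Control libraries (log2 change -0.47 ± 0.09, SE, edgeR adjusted p = 0.00132). MT-ND4 had 3213, 3150 and 3651 CPM in PM2.5 libraries and 4398, 4584 and 4268 CPM in Control libraries (log2 change -0.40 ± 0.11, SE, edgeR adjusted p = 0.00919). Neither gene overlapped between the groups, and the MT-ND4 call was lost without PM2.5 replicate 1 (edgeR adjusted p = 0.107).

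MT-ND3, which encodes a small membrane subunit, had 325, 275 and 298 CPM in PM2.5 and 425, 379 and 389 CPM in Control libraries (log2 change -0.41 ± 0.10, SE, edgeR adjusted p = 0.00459). MT-ND5, a pumping subunit at the end of the membrane arm, had 823, 841 and 897 CPM in PM2.5 and 963, 1040 and 1368 CPM in Control libraries, with Control replicate 3 highest. Both genes were free of overlap between the groups. The MT-ND5 change was -0.40 ± 0.12 on the log2 scale (SE, edgeR adjusted p = 0.0213), and its call was lost without PM2.5 replicate 1 (edgeR adjusted p = 0.121) or PM2.5 replicate 2 (edgeR adjusted p = 0.0654).

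MT-ND1 and MT-ND2, the first messages after the rRNA genes, did not pass the test. MT-ND1, which helps form the ubiquinone site, had 573, 501 and 674 CPM in PM2.5 and 492, 494 and 630 CPM in Control libraries. MT-ND2, another pumping subunit, had 699, 672 and 794 CPM in PM2.5 and 708, 732 and 881 CPM in Control libraries. Both genes overlapped between the groups, with log2 changes of 0.11 ± 0.12 for MT-ND1 (SE, edgeR adjusted p = 0.519) and -0.10 ± 0.11 for MT-ND2 (SE, edgeR adjusted p = 0.518). The sign of MT-ND1 turned without PM2.5 replicate 3 (log2 change -0.0056).

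Complex IV, cytochrome c oxidase, reduces oxygen to water, and 2 of its 3 mitochondrially encoded messages fell. MT-CO1, its catalytic subunit (chrMT:5904-7445, plus strand), had 6024, 6007 and 6810 CPM in PM2.5 libraries, against 9230, 9818 and 10670 CPM in Control libraries. The gap between the groups was wider than the range within either. Its log2 change of -0.66 ± 0.11 was the most negative of all members (SE, edgeR adjusted p = 0.000414), a level 0.634 times that of Control libraries. MT-CO2, which takes electrons from cytochrome c, had 1825, 1661 and 1946 CPM in PM2.5 and 2271, 2207 and 2616 CPM in Control libraries (log2 change -0.38 ± 0.11, SE, edgeR adjusted p = 0.0136). The groups did not overlap, and the call was lost without PM2.5 replicate 1 (edgeR adjusted p = 0.0917) or PM2.5 replicate 2 (edgeR adjusted p = 0.0702). MT-CO3, the third core subunit, had 1055, 993 and 1076 CPM in PM2.5 and 1173, 1187 and 1421 CPM in Control libraries. It did not overlap between the groups but missed the threshold (log2 change -0.28 ± 0.11, SE, edgeR adjusted p = 0.0563), which it passed with DESeq2 (adjusted p = 0.0330), limma-voom (adjusted p = 0.0490) and no filter on low counts (edgeR adjusted p = 0.0401). In the other alternatives MT-CO3 did not pass, with an edgeR adjusted p of up to 0.205 (without PM2.5 replicate 1).

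The message of complex III, MT-CYB, encodes cytochrome b. It had 733, 652 and 854.5 CPM in PM2.5 and 854.4, 853.8 and 1093 CPM in Control libraries. PM2.5 replicate 3 reached the level of Control replicates 1 and 2, and the log2 change of -0.32 ± 0.12 did not pass (SE, edgeR adjusted p = 0.0559). It passed without PM2.5 replicate 3 (edgeR adjusted p = 0.0219), with no filter on low counts (edgeR adjusted p = 0.0119), with DESeq2 (adjusted p = 0.0459) and with the replicate number as a block (edgeR adjusted p = 0.0454). In the other alternatives MT-CYB did not pass, with an edgeR adjusted p of up to 0.228 (without PM2.5 replicate 2).

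Neither ATP synthase message passed the test. MT-ATP6, part of the proton channel, had 1071, 1007 and 1192 CPM in PM2.5 and 1207, 1321 and 1391 CPM in Control libraries, without overlap (log2 change -0.26 ± 0.10, SE, edgeR adjusted p = 0.0673). It passed without PM2.5 replicate 3 (edgeR adjusted p = 0.0385) and with DESeq2 (adjusted p = 0.0470). In the other alternatives MT-ATP6 did not pass, with an edgeR adjusted p of up to 0.279 (without PM2.5 replicate 1). MT-ATP8, a small stalk subunit, had 71, 102 and 91 counts in PM2.5 libraries and 78, 95 and 133 counts in Control libraries, which overlapped (log2 change -0.27 ± 0.25, SE, edgeR adjusted p = 0.431). The 2 frames share a message, yet per kilobase MT-ATP8 averaged 12.5 CPM and MT-ATP6 1600 CPM in PM2.5 libraries, against 15.1 and 1918 CPM in Control libraries. MT-ATP8 is 207 bases long, and the overlap printed above takes 46 of them. The sources used here do not say how reads that touch both genes were counted.

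Transfer RNAs gave few counts. Of the 22 tRNA genes, 59 to 75 bases long, 20 had no count in any library, and MT-TF had 1, 1 and 0 counts in PM2.5 and 1, 3 and 0 counts in Control libraries. The largest stretch of unannotated sequence beside a tRNA gene with no count was 31 bases. MT-TP, the tRNA gene for proline on the minus strand, had 1435, 1260 and 1509 counts in PM2.5 libraries, against 1451, 1713 and 1556 counts in Control libraries. In CPM the groups did not overlap (41.3, 37.98 and 44.0 in PM2.5, 47.4, 52.8 and 45.5 in Control libraries), and the log2 change of -0.24 ± 0.10 did not pass (SE, edgeR adjusted p = 0.0854). Without Control replicate 3 it passed (edgeR adjusted p = 0.0409), but without Control replicate 2 the edgeR adjusted p was 0.308. MT-TP faces the non-coding control region on 1 side, as does MT-TF with its few counts. Whether the reads of MT-TP come from the tRNA or from a longer RNA of either strand was not tested. Its sequence (chrMT:15956-16023, minus strand) is shown as the single tRNA gene with more than a few reads.
MT-TP: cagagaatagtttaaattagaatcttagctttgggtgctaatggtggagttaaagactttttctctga

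Levels can be compared between genes only per length. Per kilobase, MT-RNR2 had 5545, 5694 and 4388 CPM in PM2.5 libraries and 5078, 5004 and 4093 CPM in Control libraries. MT-CO1 had 3907, 3896 and 4416 CPM per kilobase in PM2.5 libraries and 5986, 6367 and 6919 CPM per kilobase in Control libraries. MT-CO1 thus stood above MT-RNR2 in all 3 Control libraries and in PM2.5 replicate 3, and below it in PM2.5 replicates 1 and 2. MT-CO2 and MT-ND4 came next (2648 and 2422 CPM per kilobase in PM2.5, 3457 and 3205 in Control libraries). The remaining tested genes went down to MT-ND5 in PM2.5 libraries (471, with 620 in Control libraries) and to MT-ND1 in Control libraries. MT-ATP8 lay far below in both groups. MT-ND1 averaged 610 CPM per kilobase in PM2.5 and 564 in Control libraries, above MT-ND5 and MT-ND6 in the PM2.5 means and below both in the Control means.

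To ask which members moved apart from the other mitochondrial messages, the fit was repeated with each library scaled to its summed count of the 13 messages. On this scale 4 members were higher in PM2.5 libraries and 0 lower, where 47.8% of all genes were higher and 2.27% lower, since the scaling moved the median of all genes to 0.45. Without Control replicate 3 the counts were 7 higher and 1 lower. MT-RNR1 was higher by 0.88 ± 0.16 (edgeR adjusted p = 9.07e-05) and MT-RNR2 by 0.60 ± 0.16 (edgeR adjusted p = 0.00455) on the log2 scale relative to messages. Among the messages MT-ND1 was higher by 0.57 ± 0.13 (edgeR adjusted p = 0.00119) and MT-ND2 by 0.36 ± 0.13 (edgeR adjusted p = 0.0235). The MT-ND2 call was lost when the geometric mean of the messages was the scale (edgeR adjusted p = 0.226), and without PM2.5 replicate 1 (0.106), 2 (0.0836) or 3 (0.0674) or Control replicate 1 (0.0545) or 2 (0.113). MT-CO1 did not pass on this scale (log2 change -0.20 ± 0.13, edgeR adjusted p = 0.216). It made up 35.6% to 41.9% of the summed message counts, so the scale takes out part of its own change. With the geometric mean as scale MT-CO1 did not pass either (edgeR adjusted p = 0.102), and its log2 change in the alternatives ran from -0.33 to -0.19. Without Control replicate 3 the fall of MT-CO1 was called (edgeR adjusted p = 0.00808), as were rises of MT-ATP6 (0.0297), MT-CO3 (0.0180) and MT-CYB (0.0449). The other messages, and MT-TP, lay between -0.02 and 0.21.

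**Figure D3:**
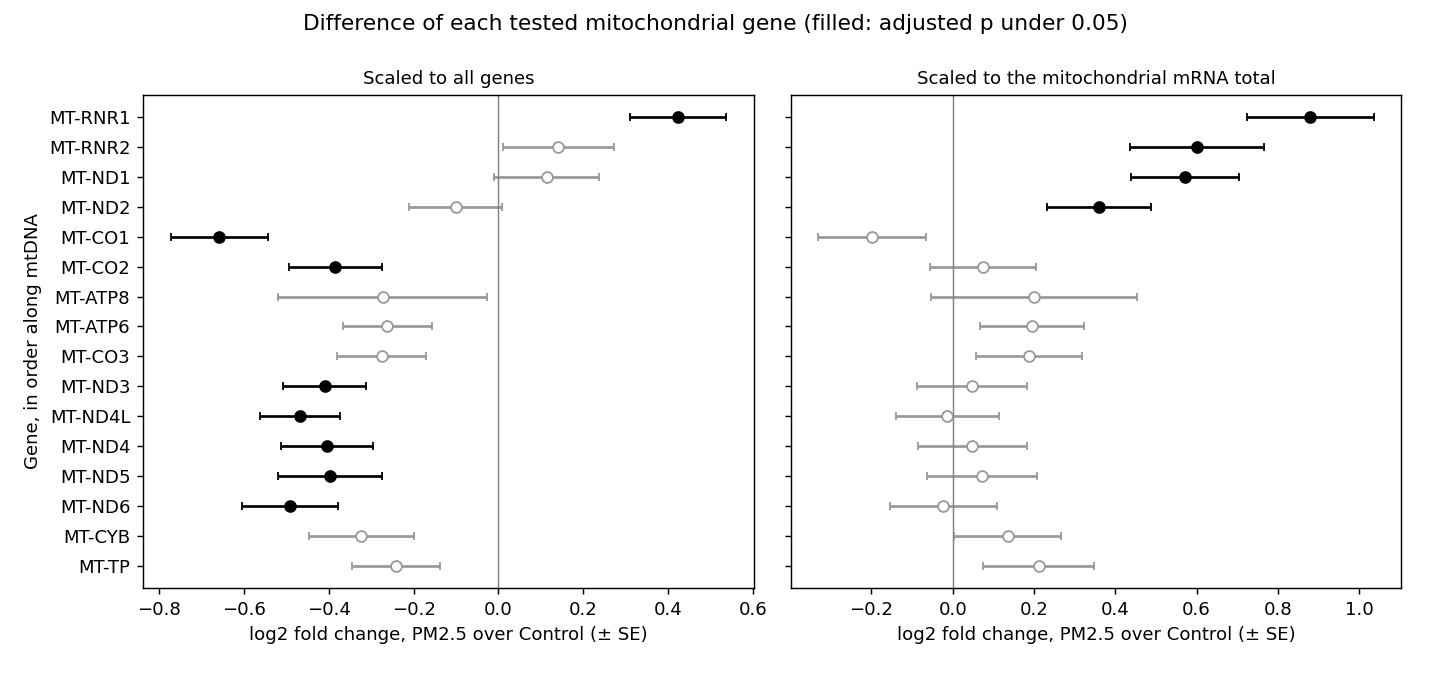
Log2 fold change (PM2.5 over Control) of each tested member in gene order along the mitochondrial DNA, with lines of 1 SE and filled symbols at an adjusted p under 0.05, scaled to all genes (left) and to the message total (right). Scaled to all genes, MT-CO1 lies lowest at -0.66 and MT-RNR1 highest at 0.42, and scaled to the messages the 4 filled symbols are MT-RNR1, MT-RNR2, MT-ND1 and MT-ND2.

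Within the messages, MT-CO1 made up 35.6%, 36.7% and 36.2% of message counts in PM2.5 libraries, against 41.1%, 41.9% and 41.6% in Control libraries. MT-ND1 made up 3.39%, 3.07% and 3.58% in PM2.5 and 2.19%, 2.11% and 2.46% in Control libraries. MT-ND2 made up 4.13%, 4.11% and 4.22% in PM2.5 and 3.15%, 3.12% and 3.43% in Control libraries. None of these 3 genes overlapped between the groups in this share. Nor did MT-ATP6 (6.34%, 6.16% and 6.33% in PM2.5, 5.37%, 5.64% and 5.43% in Control libraries). MT-CO3 stood apart too (6.25%, 6.07% and 5.72% in PM2.5, 5.22%, 5.06% and 5.54% in Control libraries). The remaining messages overlapped. Since the shares sum to a whole, a lower share of 1 gene raises those of the rest. The ratio of MT-ND1 to MT-CO1 counts needs no scaling and was 0.0951, 0.0835 and 0.0990 in PM2.5 libraries, against 0.0533, 0.0503 and 0.0591 in Control libraries. The groups stood apart here too. These messages had the highest (0.11) and lowest (-0.66) log2 changes of all messages, so the ratio is no separate support.

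The kinds of reading-frame end printed above were set beside the changes, a grouping made after the values were seen and given without a test. The MT-ND4L and MT-ATP8 frames each share a message with another frame, so not every frame end is the end of a message. The 2 frames that end in AGA or AGG, MT-CO1 and MT-ND6, had a median log2 change of -0.57. The 5 that end in a complete TAA or TAG ran from -0.47 to -0.26 (median -0.38), and the 6 that encode only T or TA ran from -0.41 to 0.11 (median -0.30). The kinds overlapped in their changes.

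The nuclear genome holds copies of mitochondrial sequence that can share reads with the genes. Of 407 copies recognised by name 360 had no count and 7 were tested. Of these 2 were lower (28.6%) and 1 higher (14.3%) in PM2.5 libraries, beside 15.8% and 16.1% of all genes. The copy called higher averaged under 1 CPM in each group. The 3 with most reads lie side by side on chromosome 1. MTCO1P12 is 98.7% identical to MT-CO1, with 20 differing bases and a longest identical run of 245 bases, and the 60-base window with most differences is printed with those differences in capitals (chrMT:6207-6266 and chr1:631377-631436, plus strand in both).
MT-CO1: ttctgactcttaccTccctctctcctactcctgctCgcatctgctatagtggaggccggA
MTCO1P12: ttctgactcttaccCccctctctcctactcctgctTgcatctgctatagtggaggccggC
MTATP6P1 is 98.5% identical to MT-ATP6, with 10 differing bases, and the matching window is chrMT:8642-8701 and chr1:633811-633870 (plus strand in both).
MT-ATP6: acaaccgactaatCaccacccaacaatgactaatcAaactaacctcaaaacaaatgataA
MTATP6P1: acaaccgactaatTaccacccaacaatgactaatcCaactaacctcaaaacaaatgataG
Identity this high leaves the assignment of reads between gene and copy uncertain.

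Changes of the copies are given beside those of their genes. MTCO1P12 had a log2 change of -0.64 ± 0.10 (SE, edgeR adjusted p = 0.000166) beside -0.66 for MT-CO1, and its counts were 0.798% to 0.827% of those of MT-CO1 in PM2.5 and 0.787% to 0.808% in Control libraries. MTATP6P1 had -0.27 ± 0.09 (SE, edgeR adjusted p = 0.0398, up to 0.230 in the alternatives and lost without PM2.5 replicate 1 or 2 or Control replicate 1 or 2). Its counts were 21.9% to 22.4% of those of MT-ATP6 in PM2.5 and 21.6% to 23.2% in Control libraries. MTND2P28, 98.4% identical to MT-ND2, did not pass (log2 change 0.07 ± 0.12, SE, edgeR adjusted p = 0.688), and its counts were 4.35% to 4.45% of those of MT-ND2 in PM2.5 and 3.84% to 3.98% in Control libraries. MTND4P12 (1.02 CPM in PM2.5 and 1.56 in Control libraries) and MTRNR2L12 (1.26 CPM in PM2.5 and 0.981 in Control libraries) did not pass either. All copies together took 0.0317% to 0.0355% of counts in PM2.5 libraries and 0.0369% to 0.0446% in Control libraries.

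**Figure D4:**
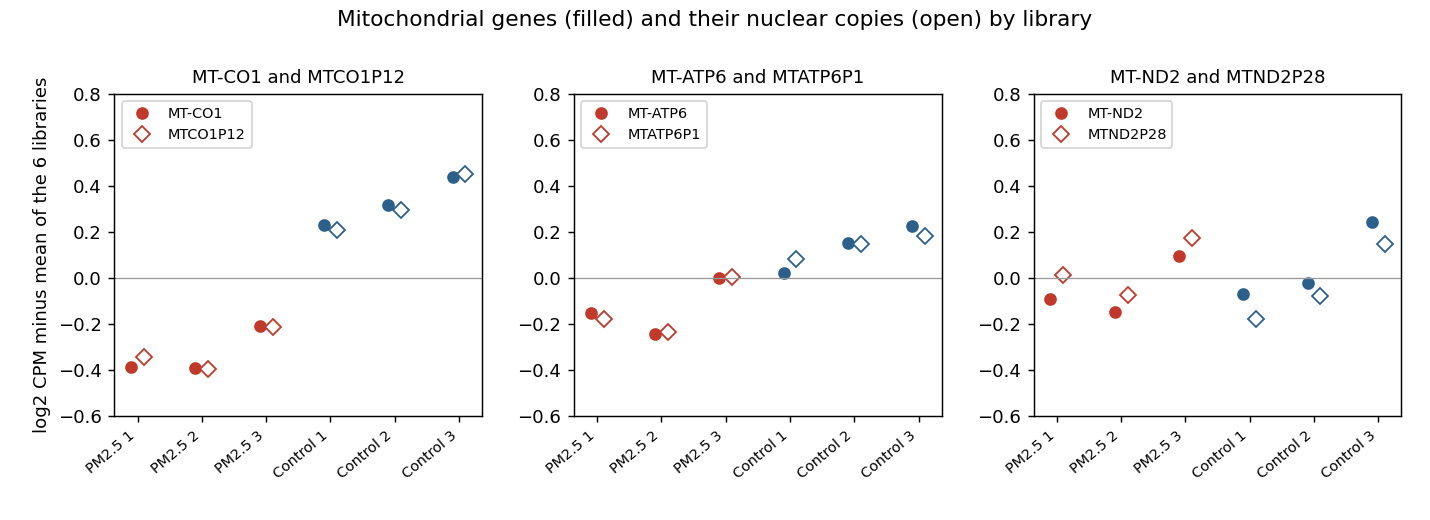
Log2 CPM minus the mean of the 6 libraries for MT-CO1, MT-ATP6 and MT-ND2 (filled) and their nuclear copies (open), in each PM2.5 and Control library. MTCO1P12 lies beside MT-CO1 in every library, and their log2 changes were -0.64 and -0.66.

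Nuclear genes of the respiratory chain fell alongside. Of 77 tested nuclear subunits of complexes I to IV and ATP synthase 35 were lower and 0 higher, beside 15.8% and 16.1% of all genes, with a median log2 change of -0.28. For complex I 18 of 37 were lower (median -0.30), among them NDUFA8, an accessory subunit (56.3 CPM in PM2.5, 90.3 CPM in Control libraries, log2 change -0.68 ± 0.10, edgeR adjusted p = 5.44e-05). For complex III 4 of 9 were lower (median -0.31), for complex IV 5 of 11 (median -0.24) and for ATP synthase 7 of 17 (median -0.27). NDUFA4 (log2 change -0.42 ± 0.11, edgeR adjusted p = 0.0102) stood in both the complex I and the complex IV list and is counted in each. Its call was lost without PM2.5 replicate 2 or Control replicate 1 (edgeR adjusted p up to 0.0604). COX6B1 of complex IV changed by -0.46 ± 0.10 (edgeR adjusted p = 0.00347) and ATP5PD, a stalk subunit of ATP synthase, by -0.53 ± 0.09 (edgeR adjusted p = 0.000476). In complex II, which has no mitochondrially encoded subunit, 2 of 4 were lower, SDHC by a log2 change of -0.41 ± 0.09 (edgeR adjusted p = 0.00224). Over all 295 tested nuclear genes of the lists 106 were lower and 7 higher. Without single libraries (PM2.5 replicate 1, PM2.5 replicate 2, Control replicate 1, Control replicate 2) 58, 62, 66 and 62 were lower. The higher ones numbered 3, 5, 3 and 4 without the same libraries, and 3 with the replicate number as a block.

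Translation genes fell as well. Called lower were 39.5% of ribosomal proteins and 38.2% of factors and charging enzymes, beside 15.8% of all genes lower and 16.1% higher. Of 81 tested mitochondrial ribosomal proteins 32 were lower and 0 higher (median -0.26), for example MRPL57 (15.7 CPM in PM2.5, 29.2 CPM in Control libraries, log2 change -0.90 ± 0.12, edgeR adjusted p = 3.31e-05) and MRPS18B (-0.70 ± 0.11, edgeR adjusted p = 0.000215). Of 34 translation factors and tRNA-charging enzymes 13 were lower and 0 higher (median -0.26). TACO1, an activator of MT-CO1 translation, had a log2 change of -0.57 ± 0.11 (edgeR adjusted p = 0.00108), and TARS2, which charges the threonine tRNA, one of -0.69 ± 0.11 (edgeR adjusted p = 0.000218).

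In the machinery that makes mitochondrial RNA, of 10 transcription genes 4 were lower and 0 higher. MTERF3, a repressor of mitochondrial transcription, changed by -0.62 ± 0.15 (edgeR adjusted p = 0.00499). POLRMT, the polymerase, changed by -0.25 ± 0.09 (edgeR adjusted p = 0.0435), a call lost without any library but Control replicate 3 (edgeR adjusted p up to 0.238). TEFM, its elongation factor, changed by -0.73 ± 0.25 (edgeR adjusted p = 0.0366), lost without any library but Control replicate 1 (edgeR adjusted p up to 0.139). TFAM, which packages the DNA and starts transcription (0.26 ± 0.13, edgeR adjusted p = 0.121), and TFB2M, which opens the promoter (0.15 ± 0.14, edgeR adjusted p = 0.452), did not pass.

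Of 22 genes for RNA cutting and modification 7 were lower (31.8%) and 1 higher (4.55%), beside 15.8% and 16.1% of all genes. Their median log2 change was -0.21. MRM1, which methylates the large-subunit rRNA, averaged 6.42 CPM in PM2.5 and 14.7 CPM in Control libraries (log2 change -1.19 ± 0.15, edgeR adjusted p = 1.52e-05). TRUB2, a pseudouridine synthase of mitochondrial messages, averaged 18.9 CPM in PM2.5 and 32.1 CPM in Control libraries (log2 change -0.77 ± 0.11, edgeR adjusted p = 6.40e-05). HSD17B10, a subunit of the enzyme that cuts tRNA 5′ ends, fell too (-0.48 ± 0.10, edgeR adjusted p = 0.00211). TRMU, which thiolates tRNAs, was the member that rose (25.1 CPM in PM2.5, 16.9 CPM in Control libraries, log2 change 0.57 ± 0.12, edgeR adjusted p = 0.00201).

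Of 18 genes for message stability and decay 2 were lower, a share of 11.1% beside 15.8% of all genes. LRPPRC, which binds and stabilises the messages, did not pass (0.16 ± 0.13, edgeR adjusted p = 0.373), and its partner SLIRP changed by -0.34 ± 0.11 (edgeR adjusted p = 0.0251), lost without PM2.5 replicate 1 or 2 or Control replicate 1 or 2 (edgeR adjusted p up to 0.121). The poly(A) polymerase MTPAP (-0.10 ± 0.14), the nuclease PNPT1 (0.18 ± 0.17), its helicase SUPV3L1 (-0.24 ± 0.11) and the RNA-binding TBRG4 (-0.08 ± 0.10) did not pass, with edgeR adjusted p of 0.604, 0.451, 0.106 and 0.588.

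Of 17 genes of mitochondrial DNA upkeep 4 were lower and 3 higher (23.5% and 17.6%, median 0.02), near the 15.8% and 16.1% of all genes. TK2, the mitochondrial thymidine kinase, averaged 15.02 CPM in PM2.5 and 29.4 CPM in Control libraries (log2 change -0.97 ± 0.11, edgeR adjusted p = 1.06e-05), and the topoisomerase TOP1MT changed by -0.58 ± 0.11 (edgeR adjusted p = 0.00108). The helicase TWNK changed by -0.53 ± 0.14 (edgeR adjusted p = 0.00753, 0.0577 without PM2.5 replicate 1). DNA2, a nuclease and helicase, rose by 0.89 ± 0.23 (edgeR adjusted p = 0.00762). The DNA polymerase POLG changed by 0.28 ± 0.09 (edgeR adjusted p = 0.0271), lost without PM2.5 replicate 1 or 3 or Control replicate 1 or 2 (edgeR adjusted p up to 0.114). The next 2 lists also lay near the shares of all genes. Among 9 biogenesis regulators 1 was lower (11.1%), the nuclear receptor ESRRA (-0.37 ± 0.09, edgeR adjusted p = 0.00571), and 1 higher (11.1%), and PPARGC1A, the main coactivator, did not pass (-0.28 ± 0.26, edgeR adjusted p = 0.437). Among 16 genes of dynamics and mitophagy 3 were lower (18.8%), with SQSTM1, an autophagy receptor, at -1.01 ± 0.10 (edgeR adjusted p = 2.01e-06), and 2 higher (12.5%), with BNIP3, a mitophagy receptor, at 1.002 ± 0.105 (edgeR adjusted p = 2.55e-06).

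**Figure D5:**
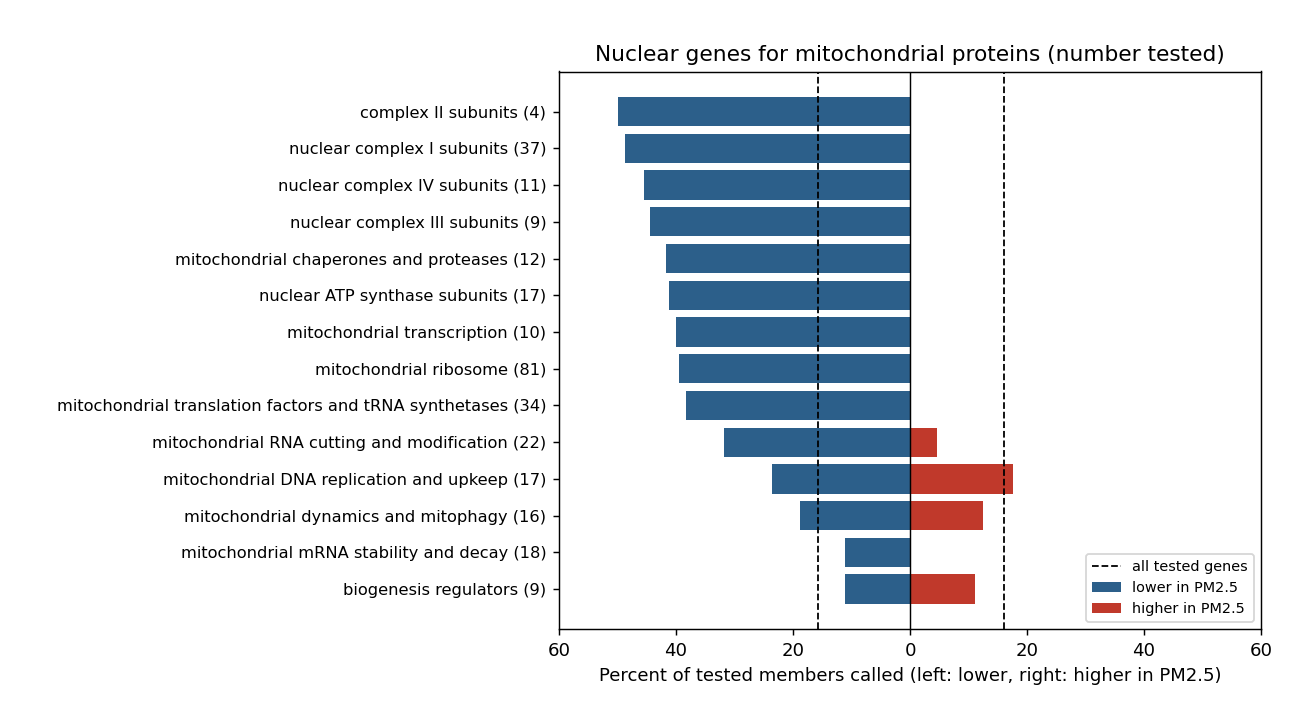
Percent of the tested genes of each nuclear list that were called lower (left) or higher (right) in PM2.5 libraries, with the number tested in brackets and dashed lines at the 15.8% and 16.1% of all genes. Complex I subunits reach 48.6% lower and 0% higher, and message stability genes 11.1% lower. NDUFA4 is counted in both the complex I and the complex IV list.

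Among tested nuclear genes, the 3 whose log2 CPM followed the summed mitochondrial messages most closely over the 6 libraries were NLRP2 (Pearson r = 0.999), ITPR3 (r = 0.995) and ZBED5-AS1 (r = 0.995). The 6 points include the difference between the groups and share library totals, so these values are a description of likeness in level.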

How the data were processed

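The authors deposited raw read counts for each gene in a single table covering the 6 libraries, per the file headers. Library preparation used the NEBNext Ultra RNA kit, per the labels' protocols, and the submitters' processing notes name the build GRCh38. The sources used here give no aligner, counter or strand setting. Members and gene lists were chosen with earlier results of these data known. The analysis used edgeR 4.0.16 in R 4.3.3: filterByExpr with a minimum count of 10 (total 15), TMM scaling and the quasi-likelihood test for group, adjusted by Benjamini-Hochberg over all tested genes. SE is the absolute log2 change over the root of F. The test was run on simulated data with fewer changed genes, and changes mostly larger than those of the members. That check does not measure recovery at the size of the member changes. Alternatives were DESeq2 1.42.0, limma 3.58.1 (voom), other filters and scalings, a replicate block and each library left out. No libraries were duplicates (chi-square per degree of freedom 5.77 to 36.4 between replicates). Every protein-coding and rRNA member is named, and tRNA genes where tested or extreme in count. From each nuclear list up to 4 called genes with the smallest p could be named, plus 13 genes in any case. HMOX1, CYP1A1, the groups of frame ends and the RNA classes were chosen after the values were seen.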

Additional observations from a re-analysis of the deposited data

How the results depend on the processing

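The members called lower numbered 4 to 9 when single libraries were left out (4 without PM2.5 replicate 1) and 7 to 10 under other settings, and those called higher 0 to 1. All genes called lower ranged from 1448 (without PM2.5 replicate 1) to 2680 with a library left out. Relative to the messages, the higher calls ranged from 3 to 7 and the lower from 0 to 1 with a library left out. For the nuclear lists the lower calls ranged from 58 to 135 and the higher from 3 to 9 with a library left out. The mitochondrial share differed by -0.489 percentage points (2.73% in PM2.5 and 3.22% in Control libraries), and by -0.664 without the 10 most abundant nuclear genes in the denominator. The cause of these shifts was not tested.

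With a library left out MT-ND1 ranged from -0.0056 (without PM2.5 replicate 3) to 0.24. Relative to the messages, small uncalled values turned sign. With the geometric mean as scale they were -0.053 (MT-CO2), -0.084 (MT-ND3), -0.083 (MT-ND4) and -0.054 (MT-ND5). With a library left out MT-ND3 ranged from -0.035 to 0.14, MT-ND4L from -0.067 to 0.030, MT-ND4 from -0.025 to 0.087 and MT-ND6 up to 0.061.

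Over all tested genes, deviations from the group means correlated by -0.0016, -0.051 and -0.122 between libraries of the same replicate number. With 3 libraries a group such values cannot tell whether the cultures were paired, and the labels do not say. With the number as a block 1951 genes were higher and 1826 lower, 1 and 8 of them mitochondrially encoded, and 3 nuclear list genes were higher and 74 lower.

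With 3 libraries a group, moderate changes of single genes can be missed, and MT-ATP8, with 71 to 133 counts, was the least precise message. How many reads were assigned to a nuclear copy in place of its gene was not measured.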
